A study of Rattus norvegicus with 9 samples.

Results

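miR-21 was described here through every deposited read sequence that the authors annotated to the rat mir-21 entry, whichever match type it was given and from both arms of the hairpin. The rule chose 244 unique sequences out of 46358 annotated sequences, of which 31220 belonged to rat entries, and it used no measured value. No sequence was annotated to a mir-21 entry of another species. Of the 244 sequences, 215 lay on the 5p arm (miR-21), 26 lay on the 3p arm (miR-21*) and 3 were assigned to neither.

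Small RNA had been sequenced from the left ventricular free wall of 3 male Sprague-Dawley rats aged 8 months, numbered hearts 6, 7 and 8. Each wall was cut into epicardium (the outer layer), mid-myocardium and endocardium (the inner layer), which gave 9 libraries, 1 per layer and heart. No animal is labelled as treated, and all carried the same strain, sex and age. Annotated reads ran from 283991 in mid-myocardium 6 to 1428025 in endocardium 7. Thus 3 reads were worth 2.10 to 10.6 RPM (reads per 1e6 annotated reads). The Wilson intervals of single libraries below cover counting error only, and polymerase chain reaction copies were not told apart. The intervals of level differences come from limma and rest on the spread between libraries.

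miR-21 is cut from its hairpin by Drosha in the nucleus and Dicer in the cytoplasm, after which one strand is kept by an Argonaute protein and the other is mostly lost. In the heart it is best known from fibroblasts and from hypertrophic and fibrotic remodelling. IsomiRs are reads of one miRNA that differ in their ends or letters. A changed 5′ end moves the seed that pairs with targets, whereas a changed 3′ end leaves the seed in place and can come from imprecise cleavage, trimming or the addition of nucleotides.

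The RefSeq hairpin of rat Mir21 has 92 nts and lies on the minus strand of GRCr8 at chr10:71902600-71902691, in no listed gene and next to Vmp1 and Tubd1. Its mature sequences hold nts 18 to 39 (5p) and nts 56 to 77 (3p), with 16 nts between them. They are shown with the seed, nts 2 to 8, in capitals, because the isomiRs below are read against them.
rno-miR-21-5p (chr10:71902653-71902674): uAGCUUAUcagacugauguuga
rno-miR-21-3p (chr10:71902615-71902636): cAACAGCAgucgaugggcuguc
No other mature sequence in the RefSeq table shared either seed.

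The 10 most frequent 5p sequences, in order of reads, and the 2 most frequent 3p sequences are listed as deposited, with T for U, and capitals mark letters that lie past the 3′ end of the mature sequence or differ from it.
mature: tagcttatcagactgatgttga
mature plus C: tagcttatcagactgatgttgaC
mature plus CU: tagcttatcagactgatgttgaCT
mature minus A: tagcttatcagactgatgttg
mature plus CC: tagcttatcagactgatgttgaCC
mature minus GA: tagcttatcagactgatgtt
mature plus CA: tagcttatcagactgatgttgaCA
mature minus 3 nts: tagcttatcagactgatgt
mature plus A: tagcttatcagactgatgttgaA
mature minus 4 nts: tagcttatcagactgatg
most frequent 3p read: caacagcagtcgatgggctgt
second most frequent 3p read: caacagcagtcgatgggctgA
The hairpin continues past the 5p mature sequence with C and then U, so plus C and plus CU follow the hairpin. Plus CC, plus CA and plus A each end in a letter that differs from the RefSeq hairpin, which is what non-templated means here, since genomic DNA of these rats was not sequenced.

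miR-21 was detected at similar levels in all 3 layers, and the layers overlapped. The level grouped by the authors on the mature sequence was 2286, 2634 and 3445 RPM in the epicardium of hearts 6, 7 and 8. It was 2882, 3566 and 2548 RPM in mid-myocardium and 2953, 2877 and 2832 RPM in endocardium, in the same order of hearts. The lowest and highest epicardial values enclosed all 3 endocardial values, and the highest value of all was in mid-myocardium. Layer means were 2788 ± 595 (epicardium), 2999 ± 519 (mid-myocardium) and 2887 ± 61.1 RPM (endocardium; SD, n = 3 each).

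Endocardium against epicardium differed by 0.07 on the log2(RPM + 1) scale (SE 0.25, 95% interval -0.50 to 0.64; limma, Benjamini-Hochberg adjusted p = 0.964). The difference of mid-myocardium against epicardium was 0.11 (interval -0.46 to 0.68; limma, adjusted p = 0.965), and that of endocardium against mid-myocardium was -0.04 (interval -0.61 to 0.53; limma, adjusted p = 0.964). The 3 heart means spanned 0.16 (limma F test with layer as covariate, adjusted p = 0.973), and 0.041 without epicardium 6, 0.252 without epicardium 7 and 0.251 with edgeR (adjusted p = 0.887). Differences within these intervals were not detectable with 3 hearts. By quantitative PCR in additional hearts, the paper reported a significant miR-21 gradient across the wall, higher in endocardium than in epicardium. That assay is specific for the annotated 3′ end, whereas the grouped level sums isomiRs. The interval of endocardium against epicardium includes differences in that direction, so these libraries do not decide on the gradient. In tissue pieces of this kind, fewer cells of a type and less RNA per cell cannot be told apart.

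Of the 304 grouped miRNAs tested, 0 were called between endocardium and epicardium at an adjusted p under 0.05 by limma, which is 0% of those tested. Without adjustment 12 (3.95%) had p under 0.05 by limma, and edgeR's quasi-likelihood test gave 0 calls after adjustment and 14 (4.61%) before it. For mid-myocardium against epicardium limma gave 0 calls after adjustment and 12 (3.95%) before it, and edgeR 0 and 11 (3.62%). For endocardium against mid-myocardium limma gave 0 and 15 (4.93%), and edgeR 0 and 18 (5.92%). With heart as a block in limma, each of the 3 comparisons had 0 calls after adjustment and 16 (5.26%) before it. Between hearts, 1 of the 304 (0.329%) was called. miR-21 was among none of these. It was the 36th most abundant grouped miRNA, between miR-186 and let-7b. Over all 9 libraries its level had an SD of 0.20 (log2), the 4th lowest among the 56 grouped miRNAs with a mean of at least 1000 RPM, whose median SD was 0.33. Of the other 55, 47 had a larger difference between endocardium and epicardium in either direction.

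**Figure D1:**
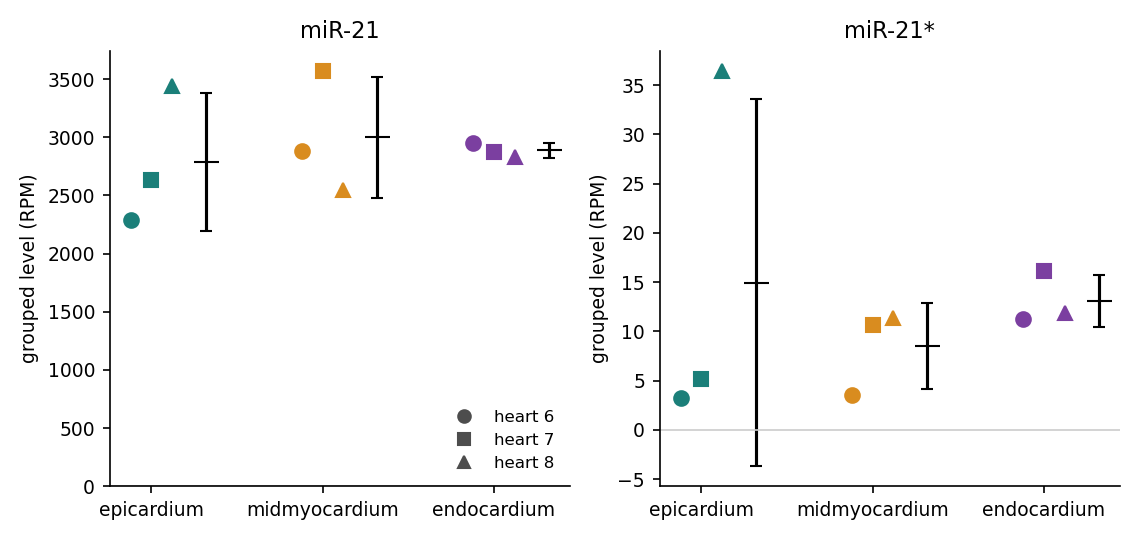
Grouped level of miR-21 (left) and miR-21* (right) in RPM, by layer, with 1 point per library, the heart shown by the marker shape, and the mean ± SD (n = 3) beside the points. miR-21 overlapped between layers at 2286 to 3566 RPM, and for miR-21* the epicardial library of heart 8 (36.5 RPM) lay above the other 8.

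The 3p strand was rare in all libraries, and 1 library stood apart in it. Summed over the libraries, 20633 of 20773 miR-21 reads (99.3%) came from the 5p arm and 117 (0.563%) from the 3p arm, a ratio of 176 to 1. The 3p arm gave 5, 4 and 37 reads in the epicardium of hearts 6, 7 and 8. It gave 2, 9 and 16 reads in mid-myocardium and 9, 24 and 11 reads in endocardium. Epicardium 8 thus held the most 3p reads although it was not the deepest library.

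As a share of miR-21 reads, the 3p arm took 0.245%, 0.210% and 1.22% in epicardium. It took 0.257%, 0.354% and 0.626% in mid-myocardium and 0.452%, 0.619% and 0.539% in endocardium. The 95% Wilson interval of epicardium 8 (0.885% to 1.67%) lay above those of the other epicardial libraries (0.105% to 0.573% and 0.0816% to 0.538%), and overlapped those of mid-myocardium 6 and 8 and endocardium 7 and 8. The ratio of 5p to 3p reads ran from 81.0 in epicardium 8 to 476 in epicardium 7. Without epicardium 8 the share ran from 0.210% to 0.626%, and the lowest ratio was 158.

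No difference in the 3p share was called between layers or between hearts. After adjustment over the 14 share tests, this share alone could not have been called, so the values below do not show equal shares. Endocardium minus epicardium was -0.0211 percentage points. The exact permutation test over all 3 layers (1680 assignments) gave p = 0.943, adjusted over 14 share tests 0.943. Its p covers all 3 layers and not this difference alone. Without epicardium 8 the difference turned to 0.309 points, and the adjusted p of the same exact test was 0.787. The highest heart mean, that of heart 8 at 0.794%, exceeded the lowest, that of heart 6 at 0.318%, by 0.476 points (exact permutation test over all 3 hearts, p = 0.0893, adjusted 0.58).

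The grouped miR-21* level was 3.19, 5.19 and 36.5 RPM in epicardium. It was 3.52, 10.6 and 11.4 RPM in mid-myocardium and 11.2, 16.1 and 11.8 RPM in endocardium. The endocardial values lay within the range of the epicardial ones. Endocardium against epicardium differed by 0.49 on the log2(RPM + 1) scale (SE 0.75, interval -1.20 to 2.18; limma, adjusted p = 0.964), and without epicardium 8 by 1.45 (limma, adjusted p = 0.412). The sign was not stable, since the difference was -0.13 without epicardium 6 and -0.30 with edgeR and with DESeq2, and the mean RPM was lower in endocardium (13.1) than in epicardium (14.96). None of these was called. Epicardium 6 stood at the level of 3 reads and mid-myocardium 6 below it, so their values rest on few molecules.

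**Figure D2:**
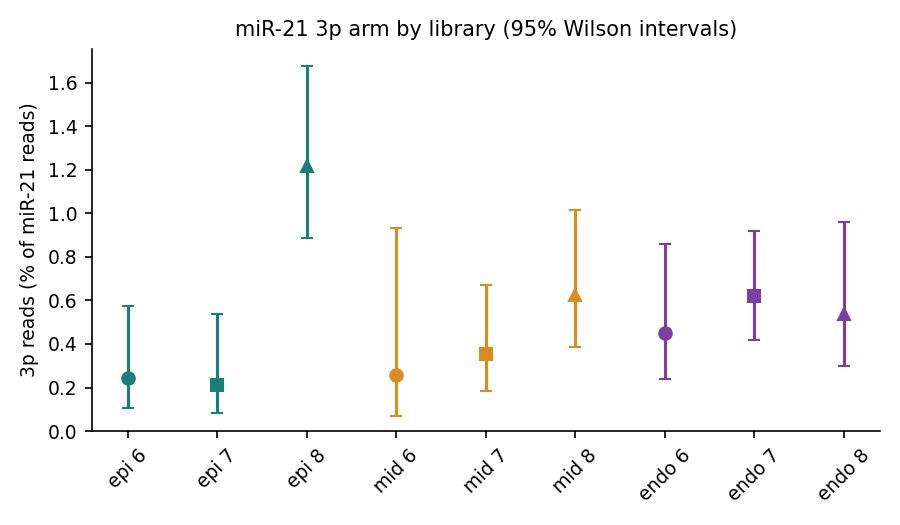
Share of miR-21 reads from the 3p arm (%) in each library, with 95% Wilson intervals that cover counting error only, coloured by layer with the marker shape for the heart. Epicardium 8 (1.22%) lay above the other 8 libraries, which ran from 0.210% to 0.626%.

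Among 34 rat hairpins with both arms listed and a mean of at least 1000 RPM, the star share of miR-21 (0.491% of reads by the authors' match types, median 0.430%) ranked 19th from the lowest, between miR-25 and miR-378. The 3p reads seldom were the annotated mature sequence. That sequence made up 3 of the 117 reads (2.56%), and reads shorter than it made up 61.5%. The most frequent 3p read, which lacks the last C, was seen 50 times, of which 22 in epicardium 8. The second most frequent, 16 reads, has the same length and ends in A. A 22-nt read that adds A to the most frequent one followed with 13 reads. Of the next 2 sequences, with 4 and 3 reads, both began in the loop, 11 and 4 nts before the mature start.

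The 5p reads had 1 main start and several 3′ ends, in the same order of abundance in all libraries. The exact mature sequence was the most frequent in each of the 9 libraries, followed in each by plus C, plus CU and minus A. These 4 sequences together held 88.4% of 5p reads (87.6% to 89.9%). Of the 215 sequences, 192 had under 10 reads over all libraries and together held 1.83% of the reads, and 117 were seen once.

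The exact mature sequence made up 44.8%, 40.7% and 48.4% of 5p reads in the epicardium of hearts 6, 7 and 8. It made up 39.8%, 41.4% and 36.4% in mid-myocardium and 37.7%, 43.5% and 43.9% in endocardium. The extremes came from 1 heart, since epicardium 8 was the highest and mid-myocardium 8 the lowest, with Wilson intervals (46.6% to 50.2% and 34.6% to 38.3%) that did not overlap. The mean over 9 libraries was 41.8% ± 3.72 (SD). Endocardium minus epicardium was -2.91 percentage points (exact permutation test over all 3 layers, p = 0.207, adjusted 0.58). The heart means of 40.7% to 42.9% spanned 2.16 points (exact permutation test over all 3 hearts, p = 0.832, adjusted 0.943). The layer difference moved to -4.87 points without epicardium 7, -1.04 without epicardium 8 and -0.902 without endocardium 6, and the heart span to 1.02 without endocardium 6, 4.17 without epicardium 6 and 5.39 without mid-myocardium 8, none with an adjusted p under 0.05.

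Longer reads that follow the hairpin made up 33.4%, 34.7% and 30.2% in epicardium. They made up 35.4%, 34.7% and 39.8% in mid-myocardium and 38.0%, 32.5% and 31.8% in endocardium. Here the order of the same 2 libraries was turned, with mid-myocardium 8 highest and epicardium 8 lowest. The mean was 34.5% ± 3.01 (SD, n = 9), and endocardium minus epicardium was 1.33 points (exact permutation test over all 3 layers, p = 0.314, adjusted 0.629).

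The other classes were smaller and spanned fewer percentage points. Reads shorter than the mature sequence made up 15.02%, 16.2% and 15.5% in epicardium, 17.4%, 16.5% and 16.5% in mid-myocardium and 15.7%, 15.9% and 16.8% in endocardium, a mean of 16.2% ± 0.715 (SD, n = 9). The 3 mid-myocardial values lay above the 3 epicardial ones, and the layers as a whole had an exact permutation p of 0.132 (adjusted 0.58). Longer reads with at least 1 mismatch to the hairpin made up 5.77% ± 0.632 (4.47% to 6.73%). Reads with another 5′ end made up 0.866% ± 0.241, with all 3 mid-myocardial values (0.515% to 0.750%) below the 3 endocardial ones (0.883% to 1.01%; exact permutation p over layers = 0.189, adjusted 0.58). The 22-nt reads with a substitution made up 0.852% ± 0.249 (SD, n = 9). None of the 14 tests of these shares and the 3p share, over layers or over hearts, had an adjusted p under 0.05. The lowest unadjusted p was 0.0714 (exact permutation test over hearts, 22-nt reads with a substitution, adjusted 0.58), where the smallest p that the test can give is 0.00357. Adjusted over the 14 tests, even that smallest p is not under 0.05 for a single share. A share that differed alone could therefore not have been called, and the lack of calls does not show equal shares.

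**Figure D3:**
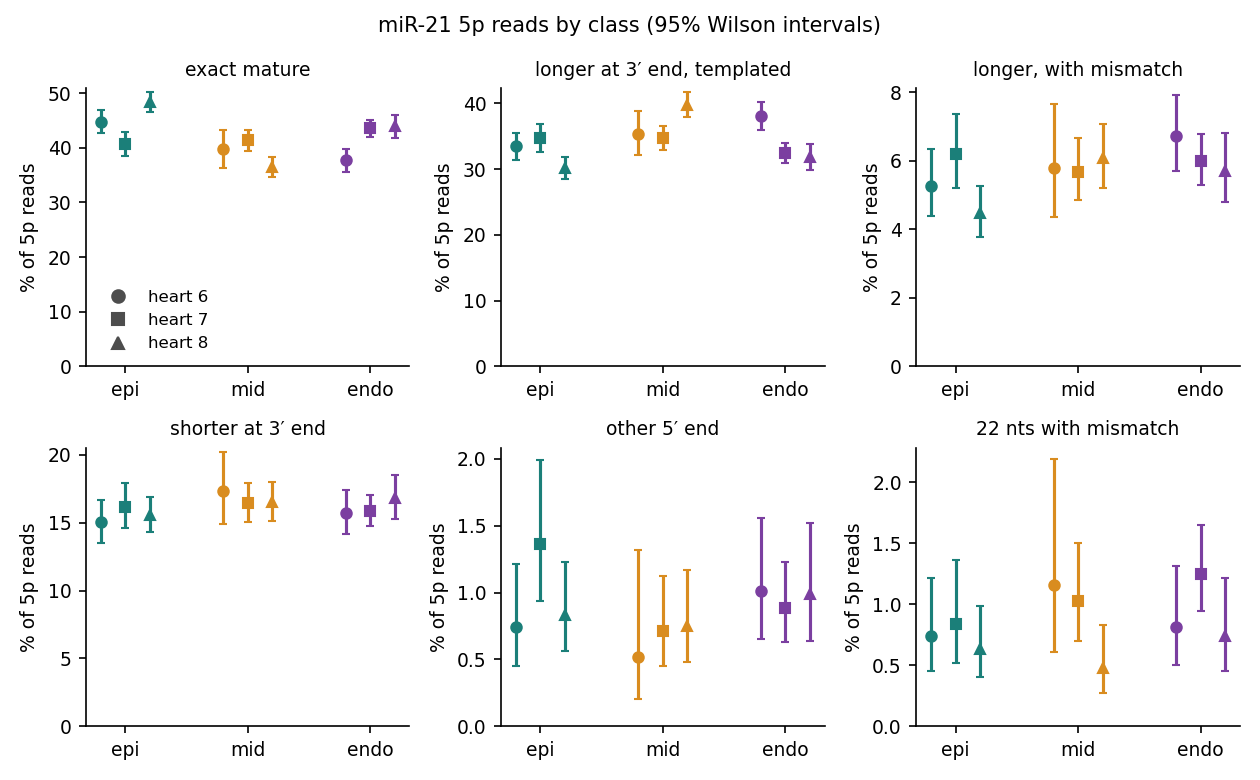
Share of miR-21 5p reads (%) in 6 isomiR classes by layer (epi, mid and endo), with 1 point per library, the heart shown by the marker shape, and 95% Wilson intervals that cover counting error only. All axes start at 0. Exact mature reads ran from 36.4% (mid-myocardium 8) to 48.4% (epicardium 8), and the 3 mid-myocardial libraries lay above the 3 epicardial ones for shorter reads and below the 3 endocardial ones for reads with another 5′ end.

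Of these sequences, 4 reached a mean of 100 RPM in a layer and entered a test of 577 abundant unique sequences of any miRNA, in which 0 (0%) were called between endocardium and epicardium by limma and 13 (2.25%) had an unadjusted p under 0.05. All 4 miR-21 sequences were among those without a call or an unadjusted p under 0.05. The mature sequence itself stood at 967, 1006 and 1556 RPM in epicardium, 1088, 1391 and 877 RPM in mid-myocardium and 1047, 1174 and 1172 RPM in endocardium, a difference of endocardium against epicardium of -0.02 (log2; interval -0.65 to 0.61). Plus C stood at 363, 509 and 526 RPM in epicardium, 549, 643 and 565 RPM in mid-myocardium and 603, 470 and 435 RPM in endocardium. All 3 mid-myocardial values of plus C were above the 3 epicardial ones, with a difference of 0.35 (log2; SE 0.25, limma, adjusted p = 0.940). Plus CU differed by 0.15 and minus A by 0.17 between endocardium and epicardium (limma, adjusted p = 0.998 for each). Between hearts, 34 of the 577 sequences (5.89%) were called by limma and 99 (17.2%) had an unadjusted p under 0.05, among them 0 of the 4 miR-21 sequences in either count.

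The relation of neighbouring 3′ ends varied between libraries of the same layer. Per 100 mature reads there were 37.5, 50.6 and 33.8 reads of plus C in epicardium. There were 50.5, 46.2 and 64.5 in mid-myocardium and 57.6, 40.0 and 37.1 in endocardium. Mid-myocardium 8 was the highest and epicardium 8 the lowest, and each layer overlapped both others. Per 100 reads of plus C there were 68.1 (mid-myocardium 8) to 98.8 (epicardium 6) reads of plus CU.

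The 3′ end of 5p reads that match the hairpin was spread over 4 positions and stopped sharply on the long side. Of these reads, 45.4% ± 3.75 ended at the mature end, 20.7% ± 2.89 ended 1 nt later and 16.7% ± 1.07 ended 2 nts later (SD, n = 9). On the short side 13.2% ± 0.611 ended 1 nt early, 2.39% ± 0.427 ended 2 nts early and 1.00% ± 0.198 ended 3 nts early. No read of this kind ended 3 nts late, and 13 reads in all ended 4 or more nts late, within the loop, the most frequent of them 5 nts late with 9 reads. Over the 48 rat miRNAs with a mean of at least 1000 RPM, 31 had templated reads 2 nts past the mature end, and 29 of these had fewer at 3 nts past it. Of the 360942 such reads at 2 nts, 349097 came from miR-30a, miR-30d and miR-30e, and miR-30c went the other way (30 reads at 2 nts and 61 at 3 nts). The start was far more uniform, since 99.1% ± 0.241 of 5p reads began at the mature start and 0.441% ± 0.143 began 1 nt later.

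**Figure D4:**
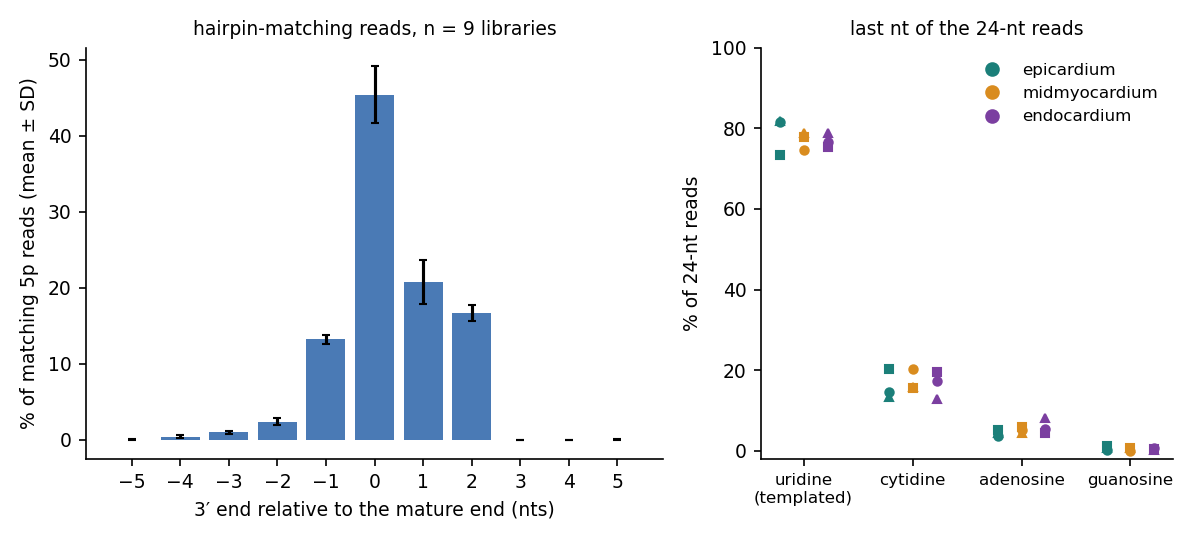
Left, 3′ ends of hairpin-matching miR-21 5p reads relative to the mature end in nts (bars, mean share; error bars, SD; n = 9 libraries). Right, share (%) of 24-nt reads by their last nucleotide, 1 point per library, coloured by layer, showing that the templated uridine made up 73.4% to 81.8% and cytidine 12.8% to 20.3%.

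Single last letters that differ from the hairpin were most often C, and 667 of the 670 such C stood at 1 place, behind plus C. Of 4047 reads of 24 nts whose first 23 letters match the hairpin, 3151 ended in the templated U (77.9%), 667 in C (16.5%), 206 in A (5.09%) and 23 in G (0.568%). C took 14.5%, 20.3% and 13.3% of these reads in the epicardium of hearts 6, 7 and 8. It took 20.3%, 15.6% and 15.8% in mid-myocardium and 17.3%, 19.6% and 12.8% in endocardium. C was thus second to the templated U in each of the 9 libraries, and the layers overlapped.

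At the neighbouring ends fewer reads carried a letter that differs from the hairpin. Of 4035 reads of 23 nts whose first 22 letters are the mature sequence, 3889 ended in the templated C (96.4%), 117 in A (2.90%) and 25 in U (0.620%). Per 100 untailed reads, plus C was followed by a non-templated C 17.2 times and by A 5.30 times, whereas the mature sequence was followed by a non-templated A 1.34 times. Behind plus CU 0 reads with 1 mismatched letter were listed, against 3151 untailed reads, whereas 24 of the 48 miRNAs had such reads at this place, 22243 in all. As RPM over annotated reads, plus CC stood at 63.9, 96.0 and 71.9 in epicardium, 113, 105 and 76.9 in mid-myocardium and 103, 105 and 67.1 in endocardium.

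Compared with other miRNAs, the share of C among such endings was the highest for miR-21. Over 48 rat miRNAs with a mean of at least 1000 RPM, reads with exactly 1 mismatch, at the last letter, ended in C in 58.4% of cases for miR-21 (670 of 1148 reads), against a median of 1.23%. The next was miR-1, a cardiomyocyte miRNA, with 46.2% of 907 such reads. The paper reports that most rat miR-1 reads differ from the rat entry at an internal letter. Reads with that mismatch are left out of this count, so the miR-1 value covers a minority of its reads. In each of the 9 libraries miR-21 ranked 1st, with 50.5% to 66.7%, and miR-1 ran from 30.8% to 54.5%. As a share of all reads of the miRNA, these C endings made up 3.24% for miR-21, which ranked 3rd after miR-130a (10.3%, named after its value was seen) and miR-101a (4.57%). One-letter endings of all kinds were not frequent on miR-21, at 5.55% of reads against a median of 9.76%, and A endings were fewer than the median too (1.76% against 4.49%). An added letter that equals the hairpin letter counts as templated, such as a U behind plus C or an A behind minus A. These shares and ranks thus depend on the hairpin letters of each miRNA. They are descriptions of the reads, with no test.

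**Figure D5:**
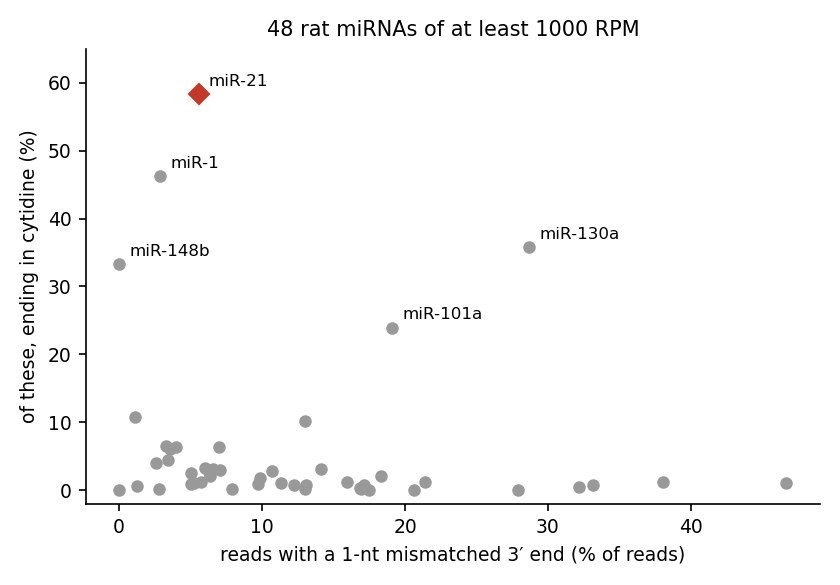
Reads whose only mismatch is their last letter, as % of all reads of a miRNA (x axis), and the share of these that end in cytidine (%, y axis), for 48 rat miRNAs, 1 point each over all 9 libraries. miR-21 (diamond) had 5.55% such reads and 58.4% of them ended in cytidine, above miR-1 (46.2%), while miR-148b rests on 3 such reads.

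Read against the same 48 miRNAs, the exact mature share of miR-21 (41.8%) ranked 17th from the highest, between miR-100 and miR-186, with a median of 34.5%. Longer templated reads (34.4%) ranked 9th, between miR-23a and miR-378, against a median of 2.87%. Shorter reads (16.02%) ranked 26th, near the median of 18.2%. In these ranks the denominator is all reads of the entry that are not annotated to the star strand.

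Substitutions within the body were few and spread over the positions, but not evenly over the letters. Over nts 1 to 21 of reads with the mature start, 229 reads (1.11% of 5p reads) held one, of 54 kinds, at each of the 21 positions, and the most frequent kind (T5C, where nt 1 is the first letter of the mature sequence) was seen in 13 reads. G15C and T19C (11 reads each) and T6C, A10G and G11C (10 reads each) came next. Of the kinds named here all but A10G changed to C. Whether this bears on the C endings above was not tested. The seed of the mature sequence, AGCTTAT as deposited, was carried by 98.8% ± 0.260 of 5p reads (98.5% to 99.2%; SD, n = 9). The next most frequent seed, GCTTATC, was that of reads starting 1 nt late, at 0.441%.

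A few reads came from the hairpin outside both mature sequences. A pair of sequences with 22 reads in 7 libraries ended at hairpin nt 17, directly before the first nt of the 5p mature sequence. The more frequent of them, with 12 reads, is shown because its end meets that start.
5′ flank read: tgtaccaccttgtcggg
On the 3p arm, 4 sequences that match the hairpin, with 10 reads, began 4 to 11 nts before the mature sequence. Each ended at hairpin nt 78, 1 nt past it. These hold the whole 3p mature sequence and are counted among the 3p reads above. A further sequence, 1 read of 51 nts in epicardium 6, ran from hairpin nt 27 to nt 77. It holds part of the 5p and the whole 3p mature sequence and was assigned to neither arm. No unannotated sequence held 16 or more consecutive nts of the hairpin, of 13317 searched, a list that holds only sequences with at least 10 reads.

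Across the 9 libraries, the grouped miRNAs of at least 1000 RPM whose log2 levels ran most like that of miR-21 were miR-126* (Pearson's r = 0.70), miR-101a (0.67), miR-143 (0.64), miR-30a (0.64) and miR-28* (0.62), out of 55. The partner strand miR-126 ran otherwise (r = -0.19), as did miR-145 (-0.29), which is listed with miR-143 as a smooth muscle marker. The least alike were miR-23a (-0.61), miR-30d (-0.59) and miR-23b (-0.55). These values describe 9 libraries that share 3 hearts and a common total, and carry no p.

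The layers held RNA of several cell types. Of the cardiomyocyte list 5 of 6 markers were listed (miR-1, miR-133a, miR-133b, miR-208 and miR-499), and their sum ran from 56247 to 111522 RPM in epicardium, 109482 to 150048 in mid-myocardium and 63898 to 108188 in endocardium. Fibroblast markers (2 of 3 listed) summed to 294 to 395, 355 to 435 and 323 to 450 RPM in these layers. For miR-199a this sum holds the grouped value, with a mean of 237 RPM. All reads of its entry that are not annotated to the star strand averaged 2185 RPM, and 89.0% of them had another start. The fibroblast sum and its r below therefore leave out most miR-199a reads. Endothelial markers (4 of 4) summed to 12274 to 16407, 12482 to 16546 and 11032 to 14748 RPM. Smooth muscle markers (2 of 2) summed to 102733 to 163949, 95994 to 131819 and 102134 to 152753 RPM.

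The blood lists were also present. Leukocyte markers (6 of 8) summed to 7299 to 14139, 9281 to 12337 and 9986 to 14900 RPM in epicardium, mid-myocardium and endocardium. Red cell markers (3 of 3, nearly all of it miR-486, which is listed under its human entry) summed to 120268 to 176213, 100428 to 146376 and 158277 to 247176 RPM. The paper cites a report of miR-486 enrichment in heart and skeletal muscle, so this sum does not measure red cells alone. The sums of cardiomyocyte markers overlapped between epicardium and endocardium, and all 3 mid-myocardial ones lay above all 3 endocardial ones. Red cell sums in endocardium lay above those in mid-myocardium. The layer means of miR-451 (560, 670 and 610 RPM) and miR-144 (43.2, 76.6 and 45.1 RPM) were instead highest in mid-myocardium. Pearson's r of each summed list with miR-21 over the 9 libraries was 0.64 for smooth muscle, 0.58 for endothelial, 0.33 for red cell, 0.04 for fibroblast, -0.30 for leukocyte and -0.50 for cardiomyocyte markers. The smooth muscle sum was nearly all miR-143, with a mean of 117209 RPM against 1803 for miR-145. The endothelial sum was mostly miR-126* (8117 RPM) and miR-126 (5860 RPM), whose own r with miR-21 differed in sign. The cardiomyocyte sum was mostly miR-133a (r = -0.50). In that list miR-1 (-0.34) and miR-133b (-0.19) were also negative, and miR-208 (0.22) and miR-499 (0.13) positive. The leukocyte sum was mostly miR-150 (-0.31). There miR-155 (-0.42) and miR-223 (-0.33) were also negative, and miR-142 (0.18), miR-146a (0.12) and miR-146b (0.12) positive. The fibroblast r joins miR-199a (0.38) and miR-214 (-0.49). The part of these cell types in the miR-21 level was not tested.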

How the data were processed

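Small RNA of 9 libraries (3 layers of 3 hearts) was prepared with a TruSeq kit, and the authors trimmed the reads and aligned them to miRBase v18 with CLC Genomics Workbench v4.0. The authors deposited unique annotated sequences as RPM over the annotated reads of each library. All of these values (100%, tolerance 0.01) were whole reads, so reads were recovered. The grouped table the authors deposited holds a signal in RPM, with * strands on the annotated reads and other miRNAs on a smaller total. Unannotated sequences were deposited with the raw read count of each library. The study names Baggerley's test, which was not used here.

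Reads were aligned without gaps to the RefSeq hairpin (GRCr8). For all 244 sequences the number of mismatches was that of the authors' annotation. Levels were tested with limma 3.58.1 (R 4.3.3) on log2(RPM + 1) over all 304 grouped miRNAs with at least 10 reads in a library and all 9 libraries, adjusted by Benjamini-Hochberg. In simulated data of this design limma recovered 45 of 60 miRNAs changed 4-fold, with 1 false call, and edgeR 46, with 2. Unique sequences were tested likewise at a mean of at least 100 RPM in a layer. Shares were compared by exact permutation tests of the between-group sum of squares over the 3 layers or the 3 hearts. Shares of single libraries have 95% Wilson intervals (scipy 1.17.1). Alternatives were edgeR 4.0.16, DESeq2 1.42.0, other pseudocounts, totals and filters, omission of each library, and heart as a block.

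Layers of the same number come from 1 heart, so heart numbers pair the libraries. Deviations of same-heart libraries correlated at 0.182 on average (-0.185 to 0.453), and those of different hearts at -0.0866 (-0.406 to 0.404). The spread between 3 rats is biological, while each layer was sampled once per rat. The text names miR-21 and miR-21*, its 10 most abundant sequences, the 5 most abundant 3p sequences, cell type marker lists, the 5 most and 3 least similar miRNAs, and neighbours in rank. The members and lists were chosen with earlier results of these data known.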

Additional observations from a re-analysis of the deposited data

How the results depend on the processing

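No level, share or count of calls crossed an adjusted p of 0.05 in any of the alternatives run, and the lowest adjusted p among them was 0.175. With heart as a replicate block, endocardium against epicardium stayed at 0.07 for miR-21 (limma, adjusted p = 0.971) and 0.49 for miR-21* (limma, adjusted p = 0.951). The share tests permuted within hearts gave no adjusted p under 0.778. The smallest p they can give is 0.0278, which stays above 0.05 for a single share after adjustment over 14 tests. They could therefore not have called a single share, and say little on the effect of the block. Uncalled differences changed sign in 15 of 303 alternatives. For endocardium against epicardium, miR-21 stood at -0.0084 and miR-21* at -0.30 with edgeR, and miR-21* at -0.30 with DESeq2. miR-21 in endocardium against mid-myocardium stood at 0.048 on the total of rat reads, and the other 5′ end share, endocardium minus epicardium, at 0.0321 points with sequences of at least 10 reads only. The edgeR fit with a block and the blocked fit of 6 libraries were added after seeing the data. Omitting 1 library at a time moved endocardium against epicardium from -0.061 to 0.23 for miR-21 and from -0.13 (without epicardium 6) to 1.45 (without epicardium 8) for miR-21*. It moved mid-myocardium against epicardium from -0.021 to 0.28 and endocardium against mid-myocardium from -0.15 to 0.091 (log2). Endocardium minus epicardium ran from -0.636 to 2.47 points for longer templated reads, -0.140 to 0.173 for the other 5′ end share and -0.195 to 0.309 for the 3p share. Depth limits the 3p arm, which had 2 to 37 reads per library.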
